A study of Mus musculus with 2 samples.

Results

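Keratin and claudin genes were followed in maps of open chromatin from mouse hepatic stellate cells, liver pericytes that store vitamin A. The set was chosen by name alone: every protein-coding gene with a Krt or Cldn symbol followed by a number and at most 1 letter. It held 78 of 21887 protein-coding genes, 53 keratins and 25 claudins. The maps came from ATAC-seq, which marks DNA that Tn5 transposase can reach. The series has 1 group, with 2 samples named replicates A and B, and no condition to set against it. Per the labels, the mice were healthy, of strain C57BL6/JBomTac and kept on chow, and their nuclei were sorted on mCherry-RPL10A. They carried the allele Gt(ROSA)26Sortm1(mCherry-Rpl10a-Flop)Kra, which supplies the tag, and the transgene Tg(Lrat-cre)1Rshw on a B6.Cg background, in which the Lrat promoter, active in stellate cells, drives Cre. Age and sex were not given, and it was not stated whether A and B came from different animals. The labels call both samples controls, although the names of the peaks in B start with the word for an oil.

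Keratins are the intermediate filament proteins of epithelial cells. A filament is built from pairs of a type I and a type II keratin, and the genes of each type lie side by side in a cluster. Claudins are the membrane proteins that form the strands of tight junctions; some seal the space between cells and others form channels through it. In the liver, hepatocytes make keratins 8 and 18, bile duct cells also make keratins 7 and 19, and endothelial cells make claudin 5. Stellate cells are mesenchymal and are known for desmin and vimentin, intermediate filament proteins of another kind.

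Replicate A listed 36577 peaks and replicate B 28794. A peak of A that shares 1 bp or more with one of B is called replicated, which held for 23452 (64.1%). The lists give no read counts, so the depth is unknown, and a peak list cannot tell a site closed in all nuclei from one open in too few to be called. A locus here means the gene body plus flanks of 20 kb. A peak at a gene end lies within 1 kb of either boundary of the gene. Of 15 stellate cell marker genes, 14 had a replicated peak in their locus, and Gfap was the other. The share of all protein-coding genes with one was 64.6%. The count was 4 of 10 for hepatocyte markers, 3 of 10 for bile duct markers, 3 of 10 for sinusoidal endothelial markers and 1 of 6 for mesothelial markers. In gene bodies the count was 14 of 15 for stellate cell markers, against 48.7% of all protein-coding genes. It was 3 of 10 for hepatocyte, 0 of 10 for bile duct, 3 of 10 for sinusoidal endothelial and 0 of 6 for mesothelial markers. These markers hold no keratin or claudin.

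Keratin genes were nearly bare of open chromatin. A replicated peak lay in the locus of 4 of 53 keratins (7.55%), against 64.6% of all protein-coding genes. Gene bodies held a replicated peak in 2 keratins (3.77%), against 48.7% of all genes. A gene end did in 1 keratin (1.89%), against 41.9% of all genes. Claudins were less bare: 9 of 25 loci (36%) held a replicated peak, but only 2 gene bodies (8%) and 1 gene end (4%) did. In 39 keratin loci and 14 claudin loci neither replicate had any peak, together 53 of 78 loci (67.9%), against 27.2% of all genes. Over the 18916 protein-coding genes no shorter or longer than the members, the shares were 63.4% for loci, 46.1% for bodies and 42.3% for ends. That range keeps most genes and does not match their lengths to the members. The median gene body was 6.96 kb in the set and 17.2 kb over all protein-coding genes.

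**Figure D1:**
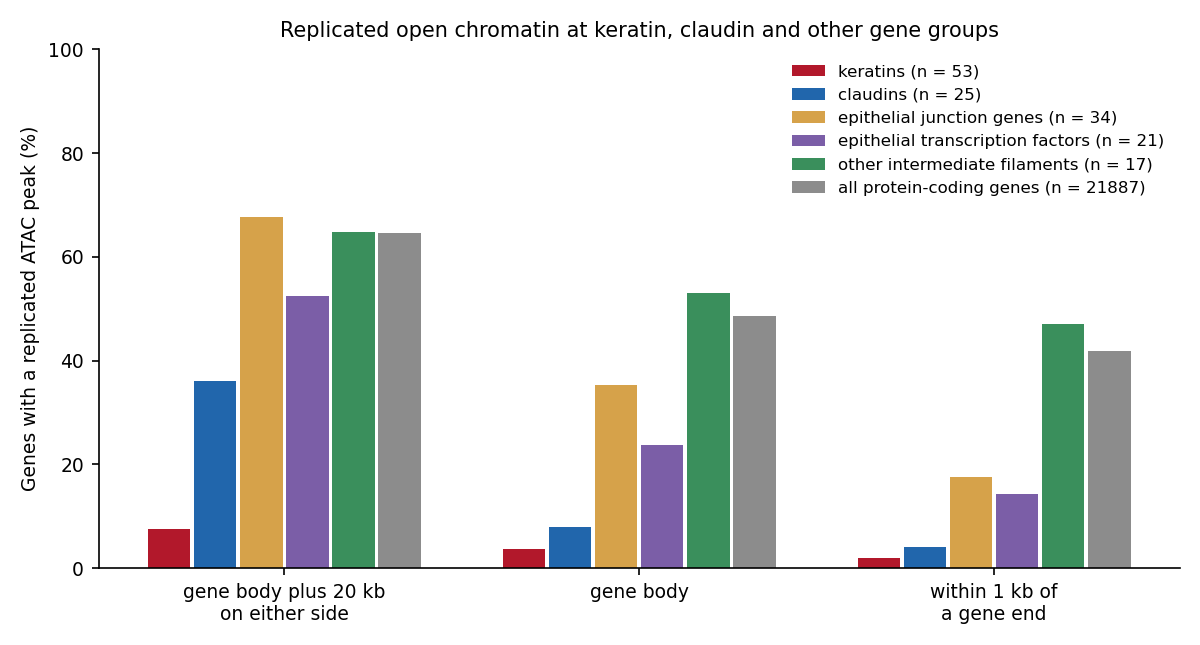
Share of genes (%, vertical axis) with a replicated ATAC peak in the gene body plus 20 kb, in the gene body and within 1 kb of a gene end, for 6 gene sets; bars are counts over genes and have no error. Keratins are lowest in all 3 places, at 7.55%, 3.77% and 1.89%, and all protein-coding genes reach 64.6%, 48.7% and 41.9%.

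The replicates differed at the keratins. With the peaks of A alone, 14 keratin loci held a peak, against 71% of all genes, and with those of B alone 4 did, against 67.6%. In gene bodies the counts were 6 in A (55.5% of all genes) and 2 in B (51.8%), and at gene ends 3 in A (47% of all genes) and 1 in B (44.8%). Keratin loci held 9 peaks of A, of which 3 (33.3%) were replicated, against 64.1% of all peaks of A. Some loci share a peak, so the 14 loci with a peak of A rest on these 9. They held no peak of B without a partner. Claudin loci held 17 peaks of A, of which 12 (70.6%) were replicated, and 3 peaks of B without a partner. With the 10000 strongest entries of each replicate, no keratin locus held a replicated peak, against 41.6% of all genes. The claudin counts moved less, to 11 loci with A alone and 9 with B alone. The running numbers in the peak names show no gap inside any of these loci in either list.

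Most keratin genes lie in long stretches with no replicated peak at all. The type I keratins form a cluster on chromosome 11 and the type II keratins one on chromosome 15, where the type I gene Krt18 also lies, next to Krt8. On chromosome 11, the 905 kb from 99386128 to 100291170 held 20 keratin genes from Krt12 to Krt42, among 58 protein-coding genes in all, and no replicated peak. Another 265 kb from 99120853 to 99385925 held 6 keratins from Krt222 to Krt28. On chromosome 15, the 693 kb from 101284137 to 101977455 held 23 keratins from Krt80 to Krt79. These 3 stretches contained 49 of the 53 keratin genes, all but Krt10, Krt78, Krt8 and Krt18. Of the 23431 stretches between neighbouring replicated peaks in the genome, 464 (1.98%) were at least as long as the longest of them, 657 (2.80%) as long as the one on chromosome 15 and 1845 (7.87%) as long as the shortest. These shares count stretches. Long stretches cover more DNA than short ones, so the shares do not say how often a gene lies in a stretch of such length.

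Peaks of single replicates broke these stretches up only in part. With the peaks of both lists pooled, the longest runs without any peak were 389 kb with 11 keratins from Krt33a to Krt9, 358 kb with 5 from Krt12 to Krt40, and 294 kb with 11 from Krt6a to Krt79. Keratin loci together covered 1.31 Mb, with 2.29 replicated peaks per Mb. Claudin loci covered 1.27 Mb with 9.48 per Mb, and the loci of all protein-coding genes 1437 Mb with 13.5 per Mb.

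**Figure D2:**
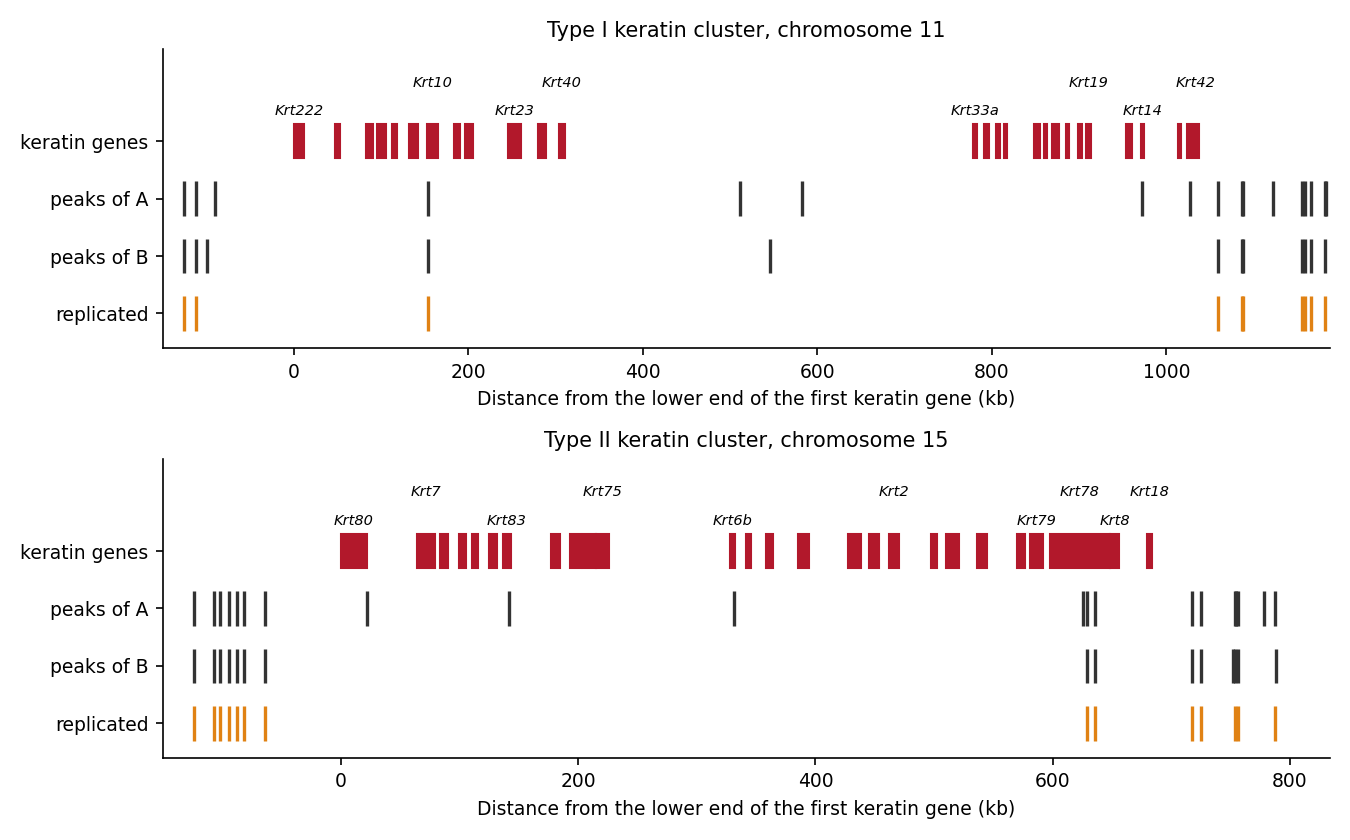
The keratin clusters of chromosomes 11 and 15, drawn to scale in kb from the first keratin gene (horizontal axis); red boxes are keratin genes, dark ticks the peaks of A and of B, and orange ticks replicated peaks. Replicated peaks lie at Krt10 and in the body of Krt78 and otherwise outside the clusters; Krt18 is the type I gene in the lower panel.

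The replicated peaks that border the clusters lay 21.2 to 112 kb from the outermost keratin genes. Beyond Krt42, the last keratin on chromosome 11, the next replicated peak lay 21.2 kb away at 100291171 to 100291731, enriched 13.9-fold over the local background in A and 12.5-fold in B. Before Krt222 the nearest lay 112 kb away at 99120569 to 99120852, at 17.4-fold in A and 10.7-fold in B. On chromosome 15 the nearest peak before Krt80 lay 64.2 kb away, 165 bp from a start site of Atg101, an autophagy gene, at 16.0-fold in A and 9.06-fold in B. After Krt18 the nearest lay 33.7 kb away, at 12.3-fold in A and 9.60-fold in B. The gene with the nearest start site was Eif4b, which encodes a translation initiation factor, 7823 bp from that peak.

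Measured from the gene body, the nearest replicated peak lay at a median of 145 kb from keratin genes, 26.4 kb from claudin genes and 0.217 kb from all protein-coding genes. It was over 100 kb away for 33 of 53 keratins (62.3%) and 4 of 25 claudins (16%), against 19.4% of all genes. It was over 50 kb away for 40 keratins (75.5%) and 8 claudins (32%), against 26.5% of all genes. At these distances the claudins were close to all genes and the keratins were not. From the start site, a replicated peak lay within 1 kb for none of 36 keratins and for 1 of 21 claudins, Cldn12, against 44.2% of all genes with a start site in the promoter table. It lay within 100 kb for 15 of those keratins and 17 of those claudins, against 78.6%. Keratins of a cluster share these stretches, so their distances are not independent of each other.

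**Figure D3:**
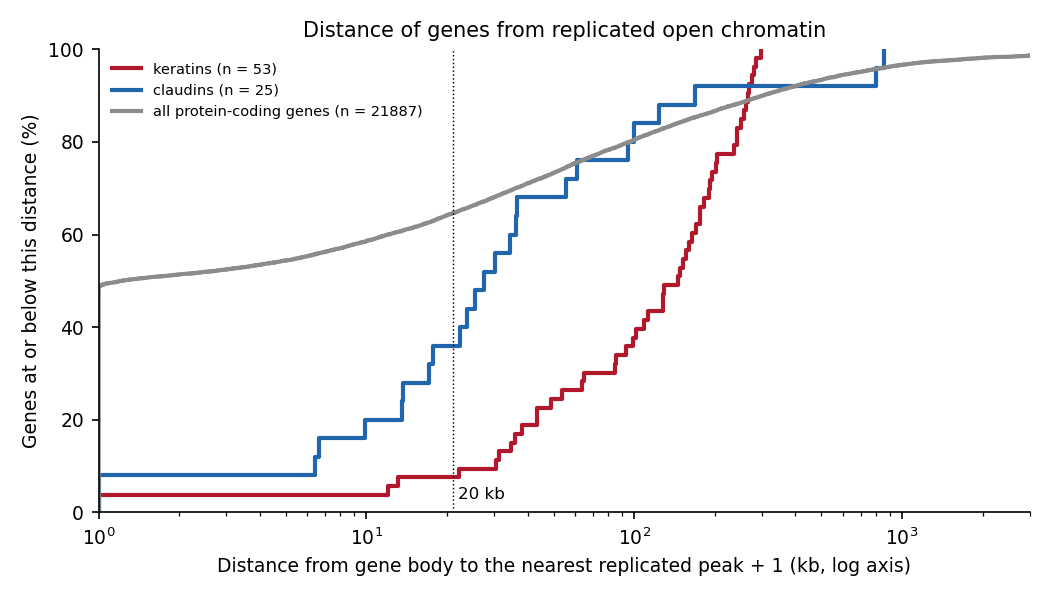
Cumulative share of genes (%, vertical axis) whose body lies at or below a given distance from the nearest replicated peak (kb plus 1, log axis), for keratins, claudins and all protein-coding genes; the dotted line marks 20 kb. The keratin curve runs to the right of the others over most of the range, with a median of 145 kb against 26.4 kb for claudins, and 48.7% of all genes hold a replicated peak in the body.

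The simple epithelial keratins, which include those of liver epithelia, had no replicated peak in a gene body or at a gene end. Krt7, Krt19 and the stress-inducible keratin gene Krt23 had no peak of either replicate in their loci, and their nearest replicated peaks lay 128, 145 and 91.8 kb from the gene. Krt20, a keratin of the gut lining, had none either, and Krt18 had none within 33.7 kb. Krt8 was the 1 of these 6 genes with replicated peaks in its locus, 12.1 and 19.0 kb from the gene. Both of these peaks lay inside the annotated body of its neighbour Krt78.

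Those Krt78 peaks were the main exception among keratins. Krt78, a type II keratin of stratified epithelia, spans 50624 bp on chromosome 15 from 101946001 to 101996624, on the minus strand. The replicated peak at 101984291 to 101984614 was enriched 14.9-fold in A and 9.02-fold in B. The other, at 101977456 to 101977693, reached 9.98-fold in A and 9.36-fold in B. A further peak at 101973815 to 101974000 was listed in A alone, at 9.48-fold. For scale, the median fold enrichment over all replicated peaks was 11.9 in A and 10.4 in B, so the first of these peaks exceeded the median in A only and the second in neither list. All 3 lay upstream of the only Krt78 start site used here, by 19.5 to 30.0 kb. That start site, with its promoter at 101954238 to 101954537, is itself inside the annotated gene body. The 3 peaks thus lie between it and the higher boundary of the gene, which is the 5′ end. The replicated peak at 101984291 was closer to the Krt8 start site, at 19.7 kb, than to that of Krt78. Which of these genes, if any, the sites belong to cannot be told from a peak list.

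Krt10 was the 1 keratin with a replicated peak at a gene end. It encodes the type I partner of keratin 1 in the upper epidermis. Its peak, on chromosome 11 from 99385926 to 99386127, was enriched 8.82-fold in A and 13.1-fold in B, below the median of A and above that of B. Krt10 is on the minus strand, and the peak lay 672 bp inside its lower boundary, which is the 3′ end, and 3.24 kb from its start site. The same peak, 11023 bp away, gave the hair root sheath gene Krt28 its 1 replicated peak. With Krt10, Krt28, Krt78 and Krt8, the keratin loci with replicated peaks are all named, and 3 peaks supply them. None of the 3 lay within 1 kb of a start site of any gene in the promoter table used here.

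Peaks of A alone fell in the bodies of 4 further keratins. They were Krt14, the keratin of basal epidermal cells, Krt17 and Krt6b, which rise in injured skin, and the hair keratin gene Krt83. Their fold enrichments were 7.78 at Krt14, 8.19 at Krt17, 7.16 at Krt6b and 8.63 at Krt83, beside a median of 7.96 for all 13125 peaks of A without a partner. The peak at Krt14 lay 977 bp from the start site of that gene. Krt17, Krt6b and Krt83 have no start site in the promoter table. Another peak of A alone lay 260 bp beyond the higher end of Krt80, at 10.1-fold. Those at Krt14, Krt17 and Krt6b were 150 bp wide, a width that 7.94% of all entries of A share. In B, no peak lay in the locus of any of these 5 genes. Through neighbouring genes, the same peaks gave Krt9, Krt16, Krt42, Krt86 and Krt6a their 1 peak of A each. Krt6a and Krt6b are close copies of each other, and how reads shared by such copies were placed was not tested.

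By the tissue in which they are known to be used, 1 of 6 simple epithelial keratins, 2 of 21 keratins of stratified epithelia and 1 of 22 hair and inner root sheath keratins had a replicated peak in the locus. Among all protein-coding genes, 64.6% had one. The other 4 keratins, Krt87, Krt88, Krt90 and Krt222, had no peak in either replicate. Loci without a peak of either replicate made up 5 of the 6 simple keratins, 11 of the 21 stratified ones and 19 of the 22 hair and root sheath ones. They made up 27.2% of all protein-coding genes.

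Among claudins, Cldn12 alone was open at its own promoter. Claudin 12 is an unusual member of the family that lacks the tail motif by which most claudins bind the scaffold protein ZO-1. The gene lies on chromosome 5 from 5505015 to 5514976, on the minus strand. Its replicated peak at 5514809 to 5515085 covered the start site and was enriched 18.8-fold in A and 13.8-fold in B. That placed it above 92.2% of the peaks of A and 80.1% of those of B. A peak of B alone, at 5514290 to 5514523 and 266 bp from a start site, reached 9.68-fold. A further replicated peak lay 3.18 kb beyond the 3′ end, at 8.09-fold in A and 9.86-fold in B.

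The promoter of Cldn12 is shown beside those of the liver epithelial keratins and of Krt10, since Cldn12 is the 1 gene of the set with promoters under a replicated peak; 1 of its 3 overlapping promoters is printed. A promoter here is the 300 bp from 250 bp before to 50 bp after a start site, read 5′ to 3′ from the RefSeq promoter table of build GRCm38.p6, which mm10 shares. Capitals mark CpG dinucleotides. The promoters are Cldn12 at chr5:5514800-5515099 on the minus strand, Krt8 at chr15:102004293-102004592 on the minus strand, Krt18 at chr15:102027966-102028265 on the plus strand, Krt7 at chr15:101412153-101412452 on the plus strand and Krt10 at chr11:99389315-99389614 on the minus strand.
Cldn12: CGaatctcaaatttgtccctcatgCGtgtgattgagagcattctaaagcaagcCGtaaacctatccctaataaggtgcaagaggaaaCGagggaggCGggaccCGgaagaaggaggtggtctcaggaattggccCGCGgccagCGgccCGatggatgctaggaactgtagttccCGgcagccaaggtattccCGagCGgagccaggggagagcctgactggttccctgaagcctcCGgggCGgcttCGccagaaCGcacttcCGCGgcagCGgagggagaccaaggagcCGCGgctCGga
Krt8: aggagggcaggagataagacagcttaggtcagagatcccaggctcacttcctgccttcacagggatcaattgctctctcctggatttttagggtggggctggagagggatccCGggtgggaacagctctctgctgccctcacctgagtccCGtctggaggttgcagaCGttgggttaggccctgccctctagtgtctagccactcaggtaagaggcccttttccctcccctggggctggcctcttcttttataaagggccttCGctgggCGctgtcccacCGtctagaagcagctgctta
Krt18: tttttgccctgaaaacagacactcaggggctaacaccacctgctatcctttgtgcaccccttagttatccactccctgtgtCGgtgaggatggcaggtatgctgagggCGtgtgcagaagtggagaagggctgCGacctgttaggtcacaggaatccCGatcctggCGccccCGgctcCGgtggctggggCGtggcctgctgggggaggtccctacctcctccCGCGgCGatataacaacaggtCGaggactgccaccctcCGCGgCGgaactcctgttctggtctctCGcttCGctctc
Krt7: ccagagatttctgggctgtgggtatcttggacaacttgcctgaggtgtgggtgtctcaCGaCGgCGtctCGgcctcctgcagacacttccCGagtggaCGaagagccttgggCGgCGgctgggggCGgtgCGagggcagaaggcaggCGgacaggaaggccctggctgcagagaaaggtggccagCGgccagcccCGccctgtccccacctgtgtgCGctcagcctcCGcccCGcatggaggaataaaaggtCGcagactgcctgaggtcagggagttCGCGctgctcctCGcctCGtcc
Krt10: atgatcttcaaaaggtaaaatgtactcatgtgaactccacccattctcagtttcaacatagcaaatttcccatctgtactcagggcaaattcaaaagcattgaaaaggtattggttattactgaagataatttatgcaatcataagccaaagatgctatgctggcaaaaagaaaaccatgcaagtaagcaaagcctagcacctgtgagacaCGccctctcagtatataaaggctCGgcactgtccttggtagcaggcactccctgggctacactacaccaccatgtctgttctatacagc

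Of the 300 bp printed for Cldn12, 277 lay under the replicated peak, and none of the others had a base under a peak of either replicate. The Cldn12 promoter holds 23 CpG dinucleotides, the Krt7 promoter 21, the Krt18 promoter 17, the Krt8 promoter 6 and the Krt10 promoter 2. The ratio of observed to expected CpG was 0.846 for Cldn12, 0.641 for Krt7, 0.603 for Krt18, 0.238 for Krt8 and 0.154 for Krt10. Krt7 and Krt18 were thus rich in CpG and still without a peak.

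The table holds 37 promoters of 36 keratins and 29 promoters of 21 claudins, and the other 21 genes of the set were not used for this step. None of the 37 keratin promoters and 3 of the 29 claudin promoters (10.3%) overlapped a replicated peak, against 37.4% of 21263 protein-coding promoters. The 3 are alternative, overlapping start regions of Cldn12. Keratin promoters were poor in CpG, with a median ratio of 0.28 against 0.397 for claudins and 0.567 for all. At a ratio of 0.6 or more, 64.6% of all promoters were open, and below it 12.6%. Of the members, 3 keratin and 6 claudin promoters reached 0.6, and among these the 3 of Cldn12 were open. The CpG-rich promoters without a replicated peak were those of Krt7, Krt18, Krt28, Cldn1, Cldn11 and 1 of the 2 of Cldn10. Below 0.6, none of 34 keratin and 23 claudin promoters was open.

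**Figure D4:**
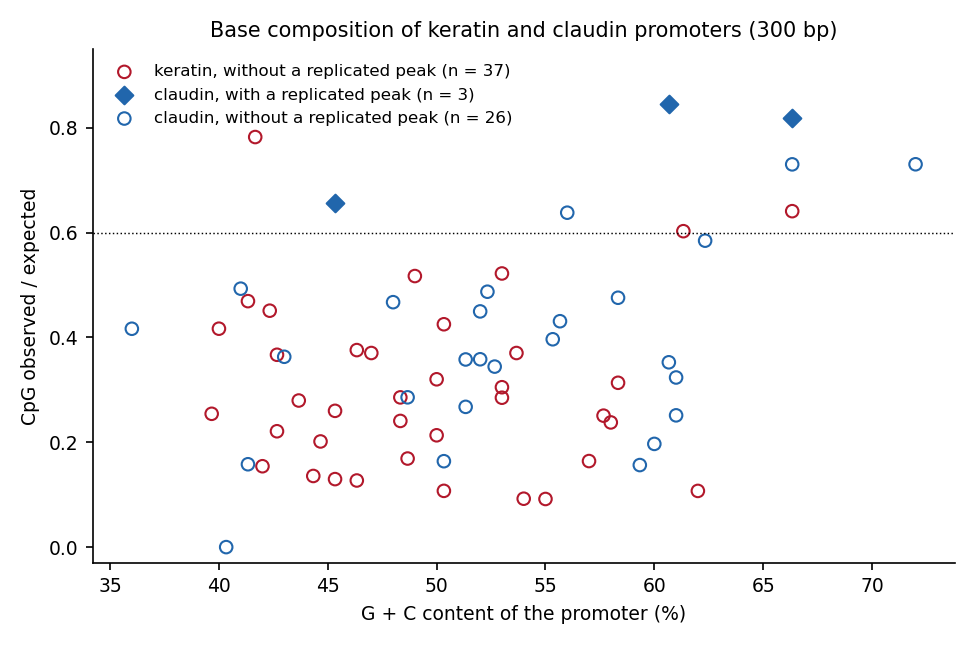
Ratio of observed to expected CpG (vertical axis) against G + C content (%, horizontal axis) of each keratin and claudin promoter of 300 bp; filled diamonds overlap a replicated peak, open circles do not, and the dotted line marks 0.6. The 3 filled points are promoters of Cldn12, and most keratin promoters sit low, around a median of 0.28.

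Letter motifs were searched on both strands and are not exclusive of each other. The TATA box letters TATAAA stood in 19 of 37 keratin promoters (51.4%) and 2 of 29 claudin promoters (6.90%), against 12.6% of all promoters of the same length. The GC box letters GGGCGG stood in 2 keratin promoters (5.41%) and 13 claudin promoters (44.8%), against 46.2% of all. The AP-1 letters TGANTCA stood in 2 keratin (5.41%) and 3 claudin promoters (10.3%), against 6.99% of all. Among all protein-coding promoters, TATAAA stood in 5.02% of those under a replicated peak and 17.1% of the rest, and GGGCGG in 72.4% and 30.6%. The printed promoters of Krt8 and Krt10 hold TATAAA, those of Cldn12 and Krt7 hold GGGCGG, and that of Krt18 holds none of the 3 motifs. A motif is a match of letters and not a bound site.

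Cldn34d, an X-linked claudin gene, was the other claudin with a replicated peak in its body. That peak, on chromosome X from 76598826 to 76599167, was enriched 12.2-fold in A and 17.3-fold in B, above 67.4% of the peaks of A and 91.9% of those of B. It lay 3.76 kb inside the gene from the start site, and the promoter itself had no peak and no CpG dinucleotide. Cldn34a, its relative on the same chromosome, had no peak of either replicate, and the nearest replicated one was 168 kb away.

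The other 7 claudin loci with a replicated peak held it outside the claudin gene. Cldn15, a channel-forming claudin of the intestine, had the most in its locus, 3. The strongest, at 26.0-fold in A and 17.3-fold in B, covered a start site of Fis1, which encodes a mitochondrial fission protein, 14.5 kb from Cldn15. Another, at 11.9-fold in A and 8.50-fold in B, lay 197 bp from a Fis1 start site. The remaining one, at 14.1-fold in A and 14.7-fold in B, covered a start site of Znhit1. None was nearer to Cldn15 than 5.41 kb.

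The same held for the neighbours of other claudins. Cldn7, a claudin of bile duct and gut epithelium, had a replicated peak 12.6 kb away, 170 bp from the start site of Elp5, at 16.3-fold in A and 20.3-fold in B. Its other, at 13.3-fold in A and 7.95-fold in B, lay at an end of the glucose transporter gene Slc2a4. The neighbours Cldn6 and Cldn9, which share their peaks, had one at the start of Hcfc1r1, at 17.3-fold in A and 13.7-fold in B. Another at chromosome 17 from 23700229 to 23700378 lay away from all protein-coding gene ends and, of the 12 claudin peaks, differed most in rank between the lists, above 17.1% of the peaks of A and 79.4% of those of B. Cldn4, a sealing claudin, and Cldn13 shared 1 peak 95 bp from the start site of Mettl27, at 15.1-fold in A and 12.7-fold in B. The peak near Cldn19, a kidney claudin, lay inside P3h1, a collagen hydroxylase gene, at 8.66-fold in A and 8.27-fold in B.

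In all, claudin loci held 12 distinct replicated peaks, of which 2 were in a claudin body and 6 sat at an end of some protein-coding gene outside the set. How often peaks in the loci of all genes sit at ends of neighbours was not computed. Leaving those 6 out, 6 claudin loci still held a replicated peak. When each peak was given only to the gene with the nearest end, 2 claudin and 2 keratin loci kept one. The shares of all genes under these rules were not computed, so the drops cannot be read as particular to these families. The median fold enrichment of the 12 peaks was 13.7 in A and 13.7 in B, and that of the 3 keratin peaks was 9.98 in A and 9.36 in B.

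**Figure D5:**
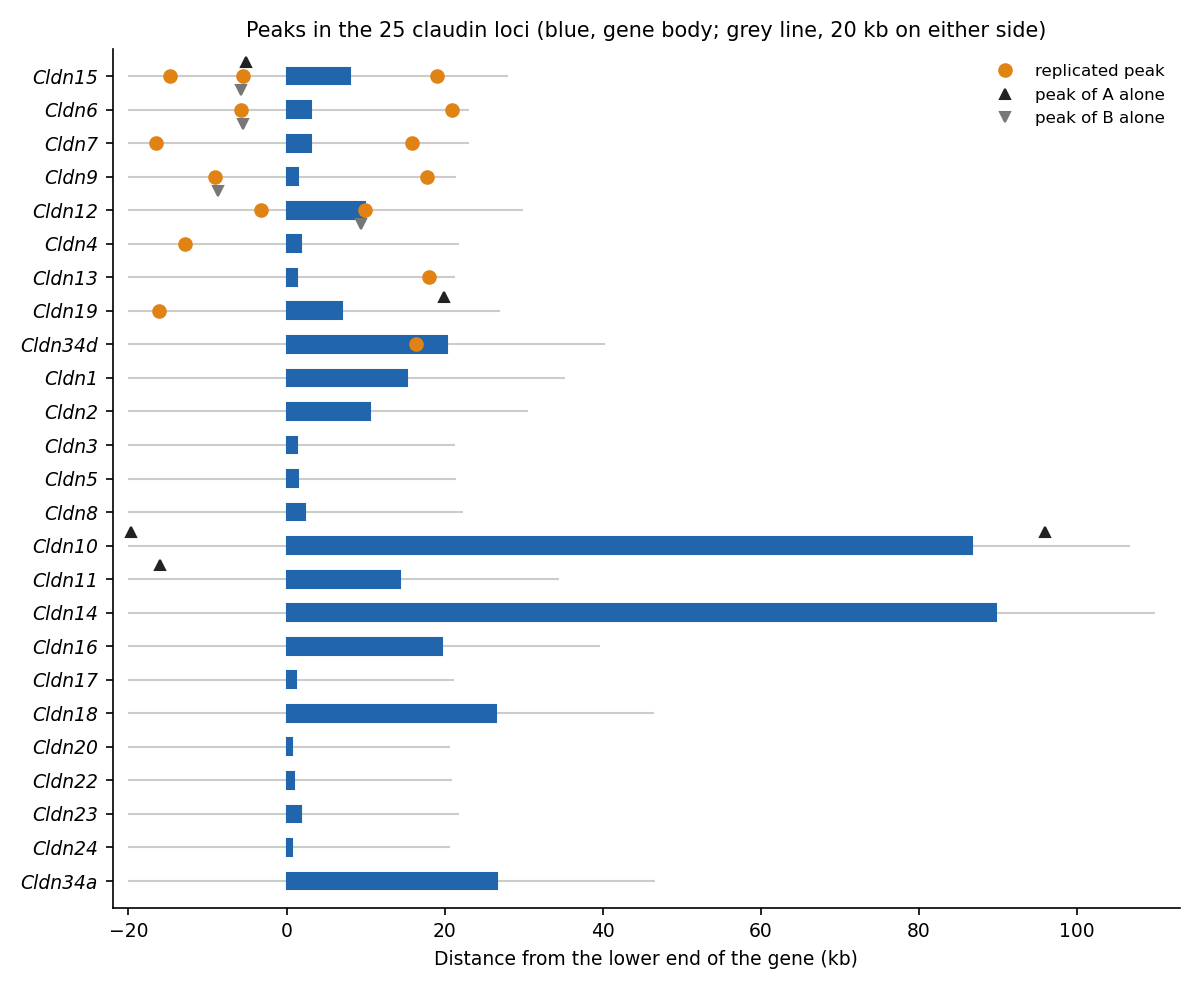
All 25 claudin loci, with position in kb from the lower end of each gene (horizontal axis); blue bars are gene bodies, grey lines the 20 kb on either side, orange circles replicated peaks and triangles peaks of 1 replicate. Only Cldn12 and Cldn34d carry a replicated peak on the bar.

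Of the claudins best known from the liver, Cldn7 had 2 replicated peaks in its locus, both at ends of other genes. The others were closed in their loci. Cldn1 and Cldn3, sealing claudins of liver epithelia, Cldn2, which forms cation channels, and Cldn5, the sealing claudin of endothelium, had no peak of either replicate. The nearest replicated peaks lay 122 kb from Cldn1, 60.2 kb from Cldn2, 21.3 kb from Cldn3 and 33.3 kb from Cldn5. Of the 7 sealing claudins, Cldn4 alone had a replicated peak in its locus, and Cldn11 had 1 of A alone. Of the 5 channel-forming claudins, Cldn15 alone had one, and Cldn10 had 2 peaks of A alone, at 13.1-fold and 7.96-fold. Of the remaining 13, which include Cldn12 and Cldn34d, 7 (53.8%) had one, against 64.6% of all protein-coding genes.

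The longest members without a peak of either replicate were Cldn14, Cldn34a, Cldn18, Cldn16 and Krt7. Cldn14, a sealing claudin of the inner ear and kidney, spans 89807 bp. Its nearest replicated peak lay 35.1 kb away, that of Cldn18, a claudin of stomach and lung, 22.8 kb away, and that of Cldn16, a claudin of kidney magnesium transport, 98.7 kb away. The farthest were those of Cldn8 and Cldn17, at 854 and 799 kb.

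Partner genes of keratins and claudins had larger shares than these families, but smaller ones than all genes in bodies and at ends. Of 34 genes of epithelial junctions, 23 (67.6%) had a replicated peak in the locus, 12 (35.3%) in the body and 6 (17.6%) at an end, against 64.6%, 48.7% and 41.9% of all genes. Their median gene body was 37.2 kb, against 7.07 kb for keratins, 3.11 kb for claudins and 17.2 kb for all genes. The shares in loci and bodies were not matched for length, and the junction loci were not checked for peaks at ends of neighbours. Jup, which encodes plakoglobin, had 3 in its body, as did Pkp2, which encodes plakophilin 2, and the polarity gene Pard3. Tjp3, which encodes the tight junction scaffold ZO-3, had the most in its locus, 5, with 1 in the body. Ppl, which encodes the desmosome protein periplakin, had 2 in its body, and Cdh1, which encodes E-cadherin, had 1 in its locus. Epcam, Ocln and Marveld2, which encode epithelial membrane proteins, had no peak in either replicate. Of 21 genes of epithelial transcription factors and splicing regulators, 11 (52.4%) had one in the locus, 5 (23.8%) in the body and 3 (14.3%) at an end, each share below that of all genes. Grhl3 had 3 in its body, while Elf3, Ehf and Ovol2 had no peak at all.

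The intermediate filament genes other than keratins had shares close to those of all genes. Of 17, 11 (64.7%) had a replicated peak in the locus, 9 (52.9%) in the body and 8 (47.1%) at an end. Des, which encodes desmin, had 4 replicated peaks in the locus, 1 of them at an end. Vim, which encodes vimentin, had 3, of which 2 were at its ends. Synm, which encodes the desmin partner synemin, and the nuclear lamin genes Lmna, Lmnb1 and Lmnb2 had 4 each. The neuronal genes Nefh, Nefm and Ina had no peak in either replicate.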

How the data were processed

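ATAC-seq was run on nuclei of 2 samples of 1 group. Per the submitters' processing notes, bedtools, HOMER, MACS2, Picard, SAMtools and STAR 2.7.0 were used on build mm10; the notes assign no task to any of them. The Tn5 read shift, the handling of duplicates and of reads that map to several places, and any cleaning of the lists are not given in the sources used here. From the authors there is 1 narrow peak list per sample, deposited with a fold enrichment (a ratio to local background) for every peak. The deposited lists also hold −log10 p and −log10 q values, made by the authors' peak caller. A whole-number score was deposited too, and is not used. Nothing is scaled between the lists, so fold enrichments describe and rank peaks within a list.

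Overlaps were computed with Python 3.11.15, numpy 2.4.6 and pandas 2.3.3, and drawn with matplotlib 3.10.9. Replicated peaks carry the 1-based coordinates of their entry in A. Gene spans came from a RefSeq table of GRCm38.p6, and start sites and promoters from its promoter table, which covers 57 of the 78 genes. All symbols of the gene lists matched, 1 of them (Pals1) through a synonym.

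Members were taken by symbol alone, although earlier results of these data were known when members and lists were chosen. Genes are not replicates, so shares stand beside those of all protein-coding genes, with no p-value. Named were the liver keratins and claudins, all members with a replicated body or end peak, those with one in 1 replicate, further loci with the most replicated peaks and the 5 longest without a peak. Members of the comparison lists were named after their values were seen. In a test on simulated data, 399 of 399 planted replicated peaks were recovered. Alternatives were each replicate alone, stricter peaks, another overlap, other flanks and end windows, other ways to assign peaks, and merging of entries deposited in pieces.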

Additional observations from a re-analysis of the deposited data

How the results depend on the processing

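With 1 replicate left out at a time, 4 to 14 keratin loci, 2 to 6 bodies and 1 to 3 ends held a peak, with 3 to 9 distinct peaks; the high values are those of A alone. With the 10000 strongest entries of each replicate, and also with entries above the median −log10 q, all of these counts were 0, while 41.6% and 52.7% of all loci held a peak. Over all genes, the shares were 26.6% and 36.3% for bodies and 23.2% and 31.1% for ends. With an end window of 500 bp no keratin end was open, against 39% of all genes. Flanks of 10 and 50 kb gave 2 and 13 of 53 keratin loci, with 7 distinct peaks at 50 kb. They gave 5 and 17 of 25 claudin loci, with 5 and 30 distinct peaks. Of all genes, 59.3% held a replicated peak with flanks of 10 kb and 73.5% with 50 kb. The claudin share of loci thus depends on the flank and came near that of all genes at 50 kb. Giving each peak to the nearest gene left 2 keratin and 2 claudin loci, and 3 distinct claudin peaks. The share of all genes under that rule was not computed. Claudin loci held 6 distinct peaks without those at ends of other genes, 6 among the 10000 strongest, where 1 claudin body was left, and 7 above the median −log10 q. The claudin loci ranged from 9 to 11, and their distinct peaks from 15 to 17, with 1 replicate left out; claudin bodies and ends kept their counts of 2 and 1. Of 68 recomputed counts, 41 stayed within 1.5 times, these last ones included. No paired analysis was possible because there is 1 group. Depth is unknown, so a closed locus means that no peak was called.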

Other observations

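The keratin-associated protein genes, which encode hair matrix proteins, lie partly inside the type I keratin cluster. None of 56 had a replicated peak in its locus, against 64.6% of all protein-coding genes. Of the 56, 50 had no peak of either replicate, against 27.2% of all genes. Their median gene body was 0.833 kb, against 17.2 kb for all genes. Many share the same stretches, so they are not independent of each other. In the 905 kb stretch of chromosome 11 without a replicated peak, 23 of the 58 protein-coding genes were of this family. Another 24 lay beside Cldn8 and Cldn17 in a stretch of 2285 kb on chromosome 16, from 87706551 to 89991743, which held 61 protein-coding genes and no replicated peak. Of the 23431 stretches between replicated peaks, 130 (0.555%) were as long, a share of the number of stretches and not of the DNA they cover.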
